A study of Mus musculus with 10 samples.

Results

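The 35 genes described here are the endothelial genes of embryonic trigeminal ganglia, chosen as a list of gene symbols and matched to the Ensembl IDs of the deposited files, out of 55414 genes counted there. All 35 were found and all 35 passed the filter on low counts, which kept 18005 genes for testing. The trigeminal ganglion holds the sensory neurons of the face, and the study compared dissected ganglia of mouse embryos (strain C57Bl6, embryonic stage E13.5) that lacked Prdm12 with ganglia of embryos that had it. The knockout group was Prdm12-/- and the wild-type group Prdm12+/+, with 5 libraries each, and all 10 carried the label Sox10 Venus+. The loss is constitutive, per the series title, so it is not restricted to a cell type. The mutant allele is not described and no sorting on Venus is named. Nothing says that the libraries are from separate embryos, so the p-values rest on a spread between libraries that may be technical. Libraries are named by genotype and replicate number, and none of these numbers occurs in both groups. The first letter of the titles is F for all knockout and K for all wild-type libraries, and a difference in handling tied to it cannot be told apart from genotype.

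Endothelial cells line blood vessels. New vessels grow by sprouting: vascular endothelial growth factor (VEGF) acts on receptors such as Kdr, a leading tip cell extends towards it, and stalk cells behind it form the tube, which matures under angiopoietin and Tie receptor signalling. In the central nervous system and in peripheral nerves, endothelial cells acquire barrier properties, with tight junctions and selective transporters, whereas vessels elsewhere stay more permeable. Prdm12, a zinc finger protein needed for nociceptor development, is known for its part in sensory neurons. In a bulk sample of a ganglion, a change in the number of endothelial cells and a change in RNA per endothelial cell cannot be told apart. Levels are shares of each library's total, so a change in the RNA of other cells cannot be told apart from these either.

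The endothelial genes were higher on average in the knockout, together and in nearly every role, but no gene of the list passed the test across all genes. The mean level was higher in the knockout for 34 of the 35 genes, where 46.3% of all tested genes had a fold change above 0. The median log2 fold change (knockout over wild type) was 0.81, against -0.03 over all 18005 tested genes, and the single estimates ran from -0.27 for Esm1 to 1.86 for Cldn5. With edgeR's quasi-likelihood test and Benjamini-Hochberg adjustment over all tested genes, 0 of 35 were called higher at an adjusted p of 0.05, against 0.0944% of all genes, and 0 were called lower, against 0.372%. The smallest adjusted p of the list was 0.104, for Slc2a1. At an unadjusted p under 0.05, 24 of the 35 were higher, against 6.4% of all tested genes, and 0 were lower, against 6.73%. Most of the 35 genes varied together from library to library, so they are not 35 separate observations. They were also chosen with earlier results of these data known. The counts and shares therefore only describe the list. Other tools made calls: DESeq2 called 14 of the 35 higher (2.22% of all genes), and limma voom with library quality weights called 24 higher (7.02% of all genes), and neither called any lower. The voom fit weighted wild-type 24 and knockout 29 by 0.191 and 0.211, and knockout 50 by 2.54. The 14 genes that both tools called were Kdr, Flt1, Flt4, Tie1, Sox7, Sox17, Tal1, Esam, Mmrn2, Nos3, Rasip1, Aplnr, Cldn5 and Slc2a1.

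The libraries differed in how much endothelial signal they held, in both groups. Added up over the 35 genes, the level was 968, 1670, 1945, 1274 and 2211 CPM (read counts scaled to a common library total, with TMM factors) in knockout 16, 29, 42, 49 and 50, and 1189, 750.3, 535, 656 and 1125 CPM in wild-type 22, 24, 32, 35 and 45. The sum was 1614 ± 501 CPM in knockout libraries and 851 ± 290.5 CPM in wild-type libraries (SD, n = 5 each). The ratio of these means was 1.90. Thus 4 of the 5 knockout libraries lay above the highest wild-type library, and knockout 16 lay within the wild-type range, below wild-type 22 and 45. In the wild type, the library numbered 32 was the lowest of all 10 for 26 of the 35 genes, against 14.9% of all tested genes. Wild-type 32 and 35 were the lowest pair for 21 genes, or 60% of the list, against 15.4% of all tested genes. At the other end, knockout 50 was the highest library for 17 genes and knockout 42 for 11, where these libraries were highest for 5.45% and 8.43% of all tested genes.

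**Figure D1:**
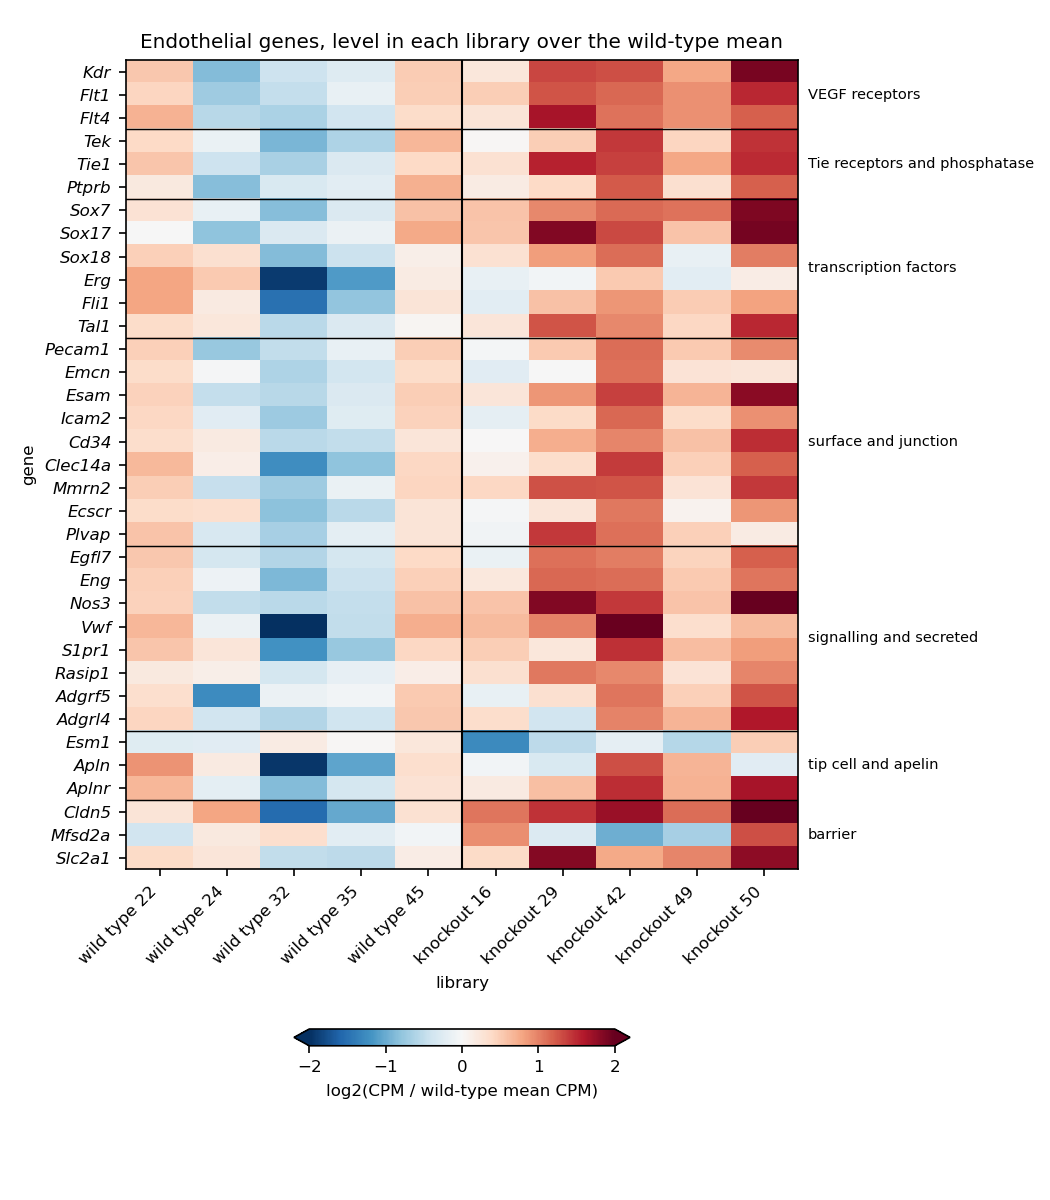
Level of each of the 35 endothelial genes (rows, by role) in each of the 10 libraries (columns), as the log2 of its CPM over the mean of the 5 wild-type libraries, where red is above and blue below that mean and the scale is capped at both ends. Most rows show the same column pattern: knockout 29, 42 and 50 red, wild-type 32 and 35 blue, and knockout 16 close to wild-type 22 and 45. Esm1, Mfsd2a, Apln and Erg depart from it.

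The pattern by library was shared by most of the genes. Relative to each gene's wild-type mean, the median over the 35 genes was 0.23, 0.83, 1.12, 0.51 and 1.20 on the log2 scale in knockout 16, 29, 42, 49 and 50, and 0.46, -0.14, -0.64, -0.36 and 0.40 in wild-type 22, 24, 32, 35 and 45. In knockout 50, 34 of the 35 genes were above their wild-type mean, as they were in wild-type 45, while in wild-type 35 only 1 was. In 21 of the 35 genes, all 5 knockout libraries exceeded the wild-type mean, and in 13 at least 4 knockout libraries exceeded every wild-type library. The matching shares of all tested genes were not counted, so these counts only describe the list. Every knockout library exceeded every wild-type library for 2 of the 35, Cldn5 and Rasip1, or 5.71%, against 1.29% of all tested genes, and 0 had every knockout library below every wild-type library, against 2.92%. With the scaling of all 10 libraries kept, the count was 13 without knockout 16 (2.84% of all genes), 6 without wild-type 45 (1.75%), 4 without wild-type 22 (1.86%) and 2 without any other single library. It also moved with the scaling. With factors recomputed on the remaining libraries it was 7 without knockout 29 (2.55%), 6 without wild-type 24 (4.92%) and 6 without wild-type 32 (1.86%), each of which gave 2 with the scaling kept. With all 10 libraries it was 6 with DESeq2-type size factors, in edgeR or DESeq2 (2.03%), 5 with no filter on low counts (0.758%) and 5 with a minimum count of 50 (2.32%).

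Wild-type 32 and 35 also stood apart from the other wild-type libraries in other tissue markers. Their summed mesenchyme markers were 999.8 and 1296 CPM, against 4916 to 6665 CPM in the other wild-type libraries and 3109 to 11487 CPM in knockout libraries. Their summed neuron markers were 14383 and 15109 CPM, against 8097 to 10308 CPM in the other wild-type libraries and 6080 to 15077 CPM in knockout libraries. Without these 2 libraries, the median log2 fold change of the 35 genes was 0.63 (0.03 over all genes), 32 of the 35 stayed above 0, and 15 had an unadjusted p under 0.05 in the higher direction, against 3.91% of all genes. None was then called by edgeR, as was no other gene in the higher direction (0% of 18673 genes). The count of genes without overlap was 2 with the scaling kept (2.14% of all genes) and 6 with it recomputed (2.96%). The ratio of the summed levels was 1.58, against 1.90 with all libraries. Wild-type 32 and 35 had the lowest sums of the 35 genes, 535 and 656 CPM, so leaving them out had to lower this ratio. The smaller median is therefore not an independent result. Knockout 42 and 50, with the highest sums, were not left out together.

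Total counts ran from 27308327 to 33556002 in 8 libraries, with 13603690 in knockout 29 and 3258008 in knockout 49. The limit that a count of 0 allows, 3 counts, corresponded to 0.236 and 0.869 CPM there and to 0.0889 to 0.107 CPM elsewhere, for counting error only. Prdm12 itself was at 8.74, 42.7, 10.1, 12.2 and 17 CPM in knockout 16, 29, 42, 49 and 50, below all wild-type libraries, which ran from 74.3 to 264 CPM, a difference that passed the edgeR test (log2 fold change -3.32, adjusted p = 0.0156). The defining neuron markers Tubb3, Isl1 and Pou4f1 and glia markers Sox10 and Erbb3 were at 66.6 CPM or more in every library. The defining vessel gene Cdh5, which encodes VE-cadherin and is not among the 35, was at 108, 171, 293, 142 and 249.96 CPM in knockout libraries and 131, 69.6, 40.5, 65.1 and 121 CPM in wild-type libraries, so endothelial RNA was present in all 10.

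The windows before the start sites of 4 members are shown because their genes mark the range of the list: Cldn5 with the largest estimate, Kdr as the main VEGF receptor, and Esm1 and Apln as the tip cell genes that departed from the rest. Each is the 250 bases upstream of the start in the RefSeq table for GRCm38.p6, 5′ to 3′ on the strand of the gene, at chr16:18776597-18776846 (plus strand) for Cldn5, chr5:75978456-75978705 (minus strand) for Kdr, chr13:113209409-113209658 (plus strand) for Esm1 and chrX:48034854-48035103 (minus strand) for Apln. Capitals mark matches, on either strand, to the ETS motif (AGGAAG or CGGAAG), the SOX motif (ACAAAG or ACAATG), the GATA motif (AGATAA) or the FOX motif (GTAAACA).
Cldn5: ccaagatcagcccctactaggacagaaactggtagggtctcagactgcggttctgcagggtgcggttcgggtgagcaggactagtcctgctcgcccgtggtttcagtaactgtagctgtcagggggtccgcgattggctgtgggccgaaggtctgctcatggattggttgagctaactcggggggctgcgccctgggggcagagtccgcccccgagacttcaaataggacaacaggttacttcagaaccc
Kdr: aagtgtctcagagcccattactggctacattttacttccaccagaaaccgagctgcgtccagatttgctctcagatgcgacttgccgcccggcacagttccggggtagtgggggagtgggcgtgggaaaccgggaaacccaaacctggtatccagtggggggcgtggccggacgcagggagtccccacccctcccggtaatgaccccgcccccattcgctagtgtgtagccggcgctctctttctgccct
Esm1: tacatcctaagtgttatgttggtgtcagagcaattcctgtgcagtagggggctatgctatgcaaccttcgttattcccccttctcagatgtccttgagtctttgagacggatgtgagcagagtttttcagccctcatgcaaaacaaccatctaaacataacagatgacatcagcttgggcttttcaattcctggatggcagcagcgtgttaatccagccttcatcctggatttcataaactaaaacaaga
Apln: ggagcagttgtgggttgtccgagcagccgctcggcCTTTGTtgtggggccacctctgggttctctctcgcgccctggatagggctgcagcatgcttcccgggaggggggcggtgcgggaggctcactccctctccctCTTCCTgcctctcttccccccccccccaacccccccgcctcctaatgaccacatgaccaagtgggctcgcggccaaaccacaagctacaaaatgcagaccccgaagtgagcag
Of these windows only that of Apln held a match, with 1 for ETS and 1 for SOX, both on the opposite strand. The table held windows for 20 of the 35 genes, 26 in all because some have more than 1 start. An ETS match was in 12 of the 26 (46.2%), against 39.2% of 32851 windows of the same length, a SOX match in 5 (19.2%, against 25.2%), a GATA match in 2 (7.69%, against 9.99%) and a FOX match in 0 (against 3.17%). A match is a description of the sequence only.

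The receptors for VEGF all had higher means in the knockout, and their 3 estimates were close together. Kdr, the main signalling receptor for VEGF-A, was at 80, 173, 167, 117 and 256 CPM in knockout 16, 29, 42, 49 and 50, and at 99.2, 37.5, 51.5, 57.3 and 96.8 CPM in wild-type 22, 24, 32, 35 and 45. In all, 4 of the 5 knockout libraries exceeded every wild-type library, and knockout 16 did not. The means were 159 ± 66.4 and 68.4 ± 27.9 CPM. This is a log2 fold change of 1.22 (SE 0.34, edgeR adjusted p = 0.169). Flt1 binds VEGF-A tightly and limits its supply to Kdr. It was at 28.7, 48.9, 45.3, 38.5 and 57.7 CPM in knockout libraries and 27.6, 12.5, 14.7, 18.4 and 28.8 CPM in wild-type libraries, in the same order of libraries. Its fold change was 1.11 (SE 0.27, edgeR adjusted p = 0.107), again with knockout 16 as the only knockout library within the wild-type range. Flt4 is the receptor for VEGF-C and VEGF-D in lymphatic and sprouting blood vessels. Its level was 12.4, 32.5, 21.9, 19.4 and 23.7 CPM and 16.8, 7.03, 6.65, 7.95 and 13.3 CPM, with knockout 29 the highest.

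Tie receptors, which bind angiopoietins or modulate their signal and steady the vessel wall, were also higher on average. Tie1 was at 44.8, 106, 93.4, 62 and 102 CPM in knockout 16, 29, 42, 49 and 50 and at 53.3, 27.4, 23.2, 29.8 and 48.1 CPM in wild-type 22, 24, 32, 35 and 45 (log2 fold change 1.17, SE 0.29, edgeR adjusted p = 0.12). Tek, the angiopoietin receptor Tie2, was at 25.9, 35.6, 67.5, 34.2 and 69.4 CPM in knockout libraries and 33.6, 23.3, 13.4, 16.6 and 40.2 CPM in wild-type libraries. Knockout 42 and 50 lay above all other libraries, while the other 3 knockout libraries fell between wild-type 24 and 45. Ptprb, the phosphatase VE-PTP that holds Tek in check, showed the same split, with 24.3, 28.4, 50.4, 26.9 and 49.7 CPM against 24.7, 12.1, 17.5, 18.6 and 35.3 CPM. Without wild-type 32 and 35, the estimate for Tek went from 0.88 to 0.59 and that for Tie1 from 1.17 to 0.99.

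Among the 6 transcription factors, the SoxF factors Sox7 and Sox17 and the haemangioblast factor Tal1 had estimates of 0.96 or more, whereas that of Erg was close to 0. Sox17, which acts in arterial fate, was at 8.56, 21.1, 14.6, 8.69 and 22.1 CPM in knockout 16, 29, 42, 49 and 50 and 5.84, 3.36, 4.78, 5.43 and 9.89 CPM in wild-type 22, 24, 32, 35 and 45 (log2 fold change 1.37, SE 0.35, edgeR adjusted p = 0.137). Its values in 3 of the 5 knockout libraries exceeded all wild-type libraries, and those in knockout 16 and 49 lay below wild-type 45. Sox7 was at 19.6 ± 7.0 CPM in knockout libraries and 8.6 ± 3.15 CPM in wild-type libraries (mean ± SD, n = 5 each). The third SoxF factor, Sox18, which takes part in lymphatic and early vessel development, was at 17.3 ± 5.75 and 10.6 ± 3.7 CPM, a smaller difference with more overlap. Tal1 is needed for blood and vessel precursors and is also expressed in red cell and megakaryocyte precursors. It stood at 7.41, 15.1, 12.2, 8.4 and 17.8 CPM and 8.11, 7.35, 4.33, 5.15 and 6.48 CPM, with only knockout 16 inside the wild-type range.

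The ETS factors Erg and Fli1, which bind the control regions of many endothelial genes, followed the other genes less closely. Erg was at 18.8, 20, 30, 18 and 23 CPM in knockout 16, 29, 42, 49 and 50 and at 35.9, 30, 5.54, 9.56 and 23.2 CPM in wild-type 22, 24, 32, 35 and 45. Its 2 lowest values, in wild-type 32 and 35, lay below the whole knockout range, its highest, in wild-type 22, lay above it, and wild-type 24 was level with knockout 42. The group means were nearly equal at 22 ± 4.88 and 20.9 ± 13 CPM (log2 fold change 0.08, SE 0.43, edgeR adjusted p = 0.95). The sign changed without wild-type 32 and 35 (-0.38), without either of them alone (-0.12 and -0.10) and without knockout 42 (-0.060). Fli1 was at 21.4 ± 5.52 and 14.5 ± 7.88 CPM, with wild-type 32 at 5.16 CPM and the other 9 libraries between 8.36 and 26.8 CPM. Its estimate went from 0.56 to 0.18 without wild-type 32 and 35. Both are also expressed outside endothelium: Fli1 in platelets and their precursors and in neural crest derivatives, and Erg in cartilage precursors.

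Surface and junction genes, the general markers of vessel wall cells, gave 9 estimates above 0, from 0.36 for Emcn to 1.11 for Esam, with a median of 0.73. Pecam1, the adhesion molecule CD31, was at 56.2, 82.5, 125, 82.8 and 111 CPM in knockout 16, 29, 42, 49 and 50 and 79.8, 34, 40.8, 52.2 and 80.8 CPM in wild-type 22, 24, 32, 35 and 45 (log2 fold change 0.67, SE 0.28, edgeR adjusted p = 0.344). Knockout 29 and 49 lay only just above wild-type 45. Esam, a junctional adhesion molecule, was at 25.7, 39.9, 55.8, 34.7 and 75.8 CPM and 29.7, 15.5, 14.7, 17.7 and 30.5 CPM, with knockout 50 the highest. Emcn, endomucin, a sialomucin of venous and capillary endothelium, was at 32.1, 37.5, 80.7, 45.7 and 44.8 CPM and 48.8, 37.2, 24.6, 29.3 and 48.6 CPM. Only knockout 42 lay clear of the wild-type libraries. Plvap forms the diaphragms of fenestrated and immature vessels and is lost as a barrier matures. Its level was 23.5, 65.9, 53.2, 34.5 and 27.8 CPM and 36.9, 19.9, 15.7, 21.6 and 29.5 CPM. Here knockout 29 and 42 exceeded all wild-type libraries and knockout 50, the highest library for 17 of the 35 genes, did not.

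The other 5 surface genes were Cd34, Clec14a, Icam2, Mmrn2 and Ecscr. Cd34, a sialomucin of endothelial and blood stem cells, was at 96.7 ± 35.6 CPM in knockout libraries and 54.2 ± 15.1 CPM in wild-type libraries. Clec14a, a lectin-type receptor of angiogenic vessels, was at 36.6 ± 14.6 and 21.1 ± 10.3 CPM, and its ligand in the vessel matrix, Mmrn2, at 24 ± 8.12 and 12 ± 4.33 CPM. For these genes the SD within a group was smaller than the difference between the means in Mmrn2 and Cd34 and about as large in Clec14a. Icam2, a leukocyte ligand, was at 14.9 ± 5.24 and 9.85 ± 3.32 CPM, and Ecscr, which promotes endothelial migration, at 16.9 ± 5.9 and 11.9 ± 4.12 CPM, both with knockout 16, 29 and 49 among the wild-type values.

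**Figure D2:**
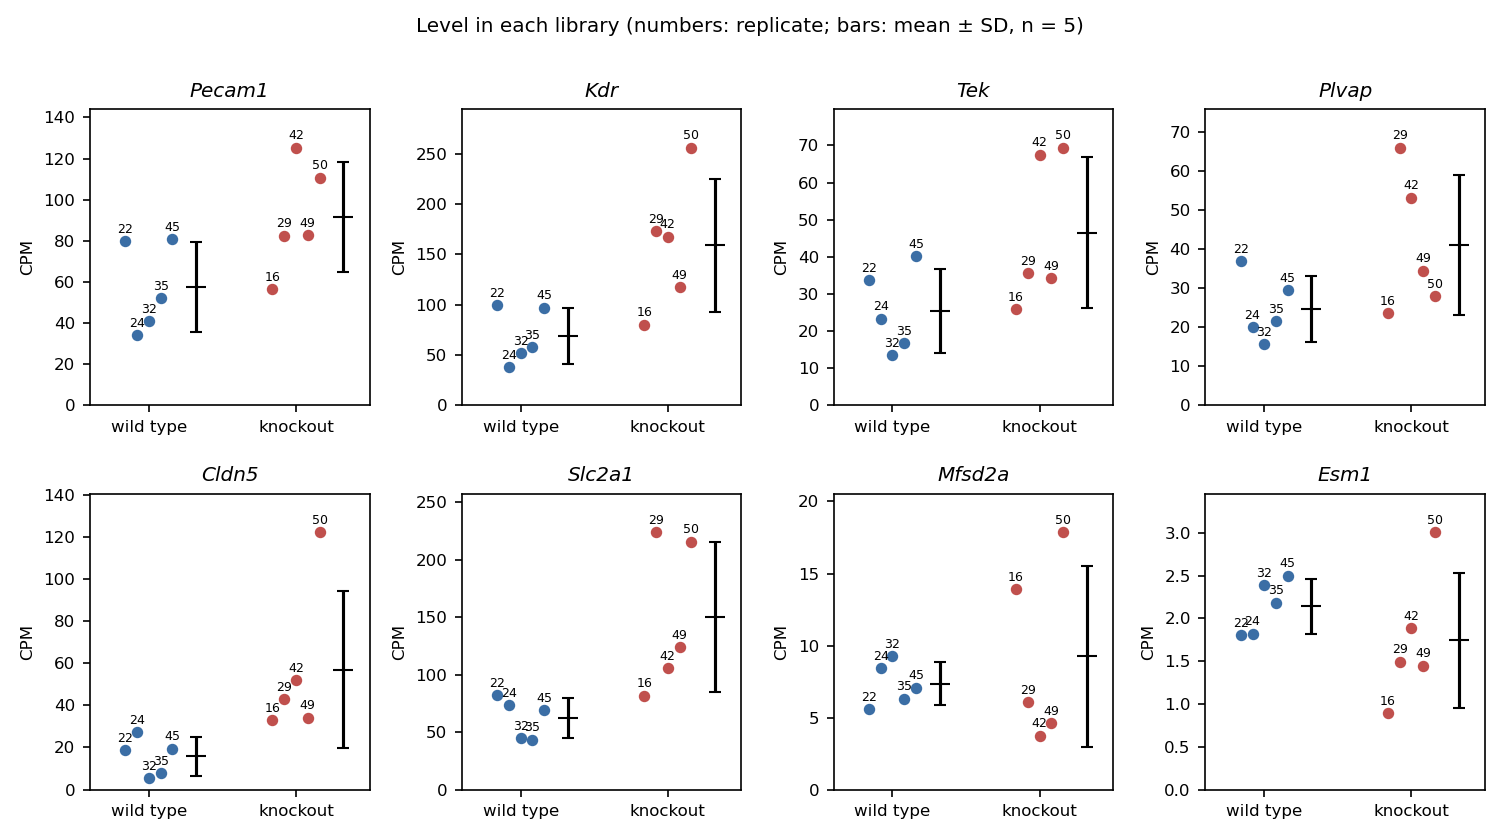
CPM (vertical axes, linear, from 0) of 8 endothelial genes in each wild-type (blue) and knockout (red) library, with replicate numbers beside the points and bars for the mean ± SD of 5 libraries. Cldn5 is the only gene of these 8 with no overlap between the groups, while Mfsd2a and Esm1 spread on both sides of the wild type.

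Signalling and secreted genes had 8 of 8 estimates above 0, with a median of 0.81. Nos3, the endothelial nitric oxide synthase, had the largest of them, with 10.5, 25.3, 18.8, 10.4 and 29.4 CPM in knockout 16, 29, 42, 49 and 50 and 9.71, 4.99, 4.82, 5.05 and 10.6 CPM in wild-type 22, 24, 32, 35 and 45 (log2 fold change 1.44, SE 0.36, edgeR adjusted p = 0.122). Knockout 16 and 49 lay just below wild-type 45, and the other 3 knockout libraries were well above it. Its exons share 25.2% of their length with the antisense gene Gm15587 in GENCODE M21 (GRCm38). Whether reads were counted by strand was not given in the sources used here, so reads in the shared part cannot be told apart. Rasip1, an adaptor needed for lumen formation, was the other gene with no overlap, at 14.1, 23.4, 21.9, 13.6 and 22.1 CPM and 12.8, 12.2, 8.8, 10 and 12.3 CPM (log2 fold change 0.77, SE 0.20, edgeR adjusted p = 0.149), although the gap between knockout 49 and wild-type 22 was small. It shares 20.4% of its exon length with Izumo1 on the same strand, and 15.6% and 6.93% with the antisense genes A030001D20Rik and Gm45437. In all, 8 of the 35 genes share exon bases with another gene there, among them Sox17 (16.8% with Gm37587, on the opposite strand), Slc2a1 (2.99%) and Cd34 (2.03%).

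Vwf, the von Willebrand clotting factor made by endothelium and megakaryocytes, was at 42.1, 54, 107, 34.5 and 42.3 CPM in knockout 16, 29, 42, 49 and 50 and 42.9, 25, 3.88, 19.3 and 44.8 CPM in wild-type 22, 24, 32, 35 and 45. Knockout 42 stood far above every other library and wild-type 32 far below, and the estimate, 1.05 (SE 0.53), went to 0.64 without wild-type 32 and 35. Adgrf5, an adhesion receptor of capillary endothelium, had the smallest estimate of these 8 genes, with 38.9, 54.3, 91, 60.5 and 104 CPM and 54.5, 18.1, 40, 41.9 and 62.2 CPM (log2 fold change 0.69, SE 0.33). Here wild-type 24 and not 32 was the lowest, far below the other wild-type libraries.

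Of the remaining signalling genes, Egfl7, a secreted factor that guides vessel tube formation and whose gene also holds the microRNA miR-126, was at 85.1 ± 28.8 CPM in knockout libraries and 48.6 ± 17.4 CPM in wild-type libraries. Eng, endoglin, a co-receptor for BMP9 and BMP10, was at 62.7 ± 16.8 and 34.6 ± 13.4 CPM, and S1pr1, the receptor through which sphingosine 1-phosphate stabilises junctions, at 30.8 ± 10.9 and 17.8 ± 8.17 CPM. Adgrl4, an adhesion receptor linked to angiogenesis, was at 13.2 ± 6.55 and 7.62 ± 2.82 CPM. For Adgrl4 the knockout values ran from 5.82 CPM in knockout 29 to 23.2 CPM in knockout 50 and overlapped most of the wild-type range of 5.09 to 11.1 CPM, whereas 4 knockout libraries exceeded every wild-type library for Eng. S1pr1 is also expressed by glia and neurons.

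The 3 tip cell and apelin genes differed from one another. Esm1, endocan, a secreted proteoglycan that marks tip cells, was the 1 gene of the 35 with a lower mean in the knockout. It was at 0.889, 1.49, 1.88, 1.45 and 3.01 CPM in knockout 16, 29, 42, 49 and 50 and 1.8, 1.82, 2.39, 2.18 and 2.5 CPM in wild-type 22, 24, 32, 35 and 45, from 30, 19, 53, 5 and 86 counts and 54, 57, 69, 64 and 71 counts. The lowest value came from knockout 16 and the highest from knockout 50, so the knockout enclosed the whole wild-type range (log2 fold change -0.27, SE 0.32, edgeR adjusted p = 0.726). Wild-type 32, lowest for most of the list, held the second highest wild-type level of Esm1. Apln, apelin, the peptide that tip cells secrete, was at 9.19, 7.79, 23.4, 15.3 and 8.18 CPM and 17.8, 10.9, 2.49, 4.61 and 12 CPM. Wild-type 32 and 35 lay below every knockout library and knockout 42 above every wild-type library (log2 fold change 0.41, SE 0.50, edgeR adjusted p = 0.735), and its estimate was -0.043 without wild-type 32 and 35. Aplnr, the receptor for apelin on sprouting and venous endothelium, instead followed the general vessel genes, at 64.3, 86.2, 158, 91.5 and 177 CPM and 89.9, 49.6, 31, 44.3 and 69 CPM (log2 fold change 1.03, SE 0.33, edgeR adjusted p = 0.236), with knockout 42 and 50 the highest.

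The 3 barrier genes of the list differed from one another. Cldn5, the main claudin of endothelial tight junctions, had the largest estimate of the 35. It was at 33, 43, 51.8, 34.2 and 122 CPM in knockout 16, 29, 42, 49 and 50 and 18.7, 27.3, 5.44, 7.72 and 19.5 CPM in wild-type 22, 24, 32, 35 and 45. The groups did not overlap. The means were 56.8 ± 37.3 and 15.7 ± 9.05 CPM, a log2 fold change of 1.86 (SE 0.49, edgeR adjusted p = 0.143). The estimate was 1.37 without knockout 50 and 1.44 without wild-type 32 and 35. Slc2a1 is the glucose transporter GLUT1, found on barrier endothelium and also on fetal red cells and many other cells. Its level was 81.8, 224, 106, 124 and 216 CPM and 81.8, 73.7, 44.5, 43.5 and 69.2 CPM, where knockout 29 and 50 were the highest and knockout 16 was level with wild-type 22 (log2 fold change 1.26, SE 0.30, edgeR adjusted p = 0.104). It was the 1 gene of the list that edgeR called when no filter on low counts was used (adjusted p = 0.0444, 0.139% of all genes). Knockout 29 also had the highest summed level of red cell genes, 3571 CPM, and their part in the level of Slc2a1 was not tested.

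Mfsd2a, the lipid transporter that suppresses vesicle transport across barrier endothelium, did not follow Cldn5. It was at 13.9, 6.06, 3.73, 4.63 and 17.9 CPM in knockout 16, 29, 42, 49 and 50 and 5.6, 8.44, 9.25, 6.32 and 7.08 CPM in wild-type 22, 24, 32, 35 and 45. Knockout 16 and 50 lay above every wild-type library, and knockout 42 and 49 below every one of them, with knockout 29 inside the wild-type range (log2 fold change 0.36, SE 0.41, edgeR adjusted p = 0.717). The sign of the estimate changed without knockout 50 (-0.025).

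**Figure D3:**
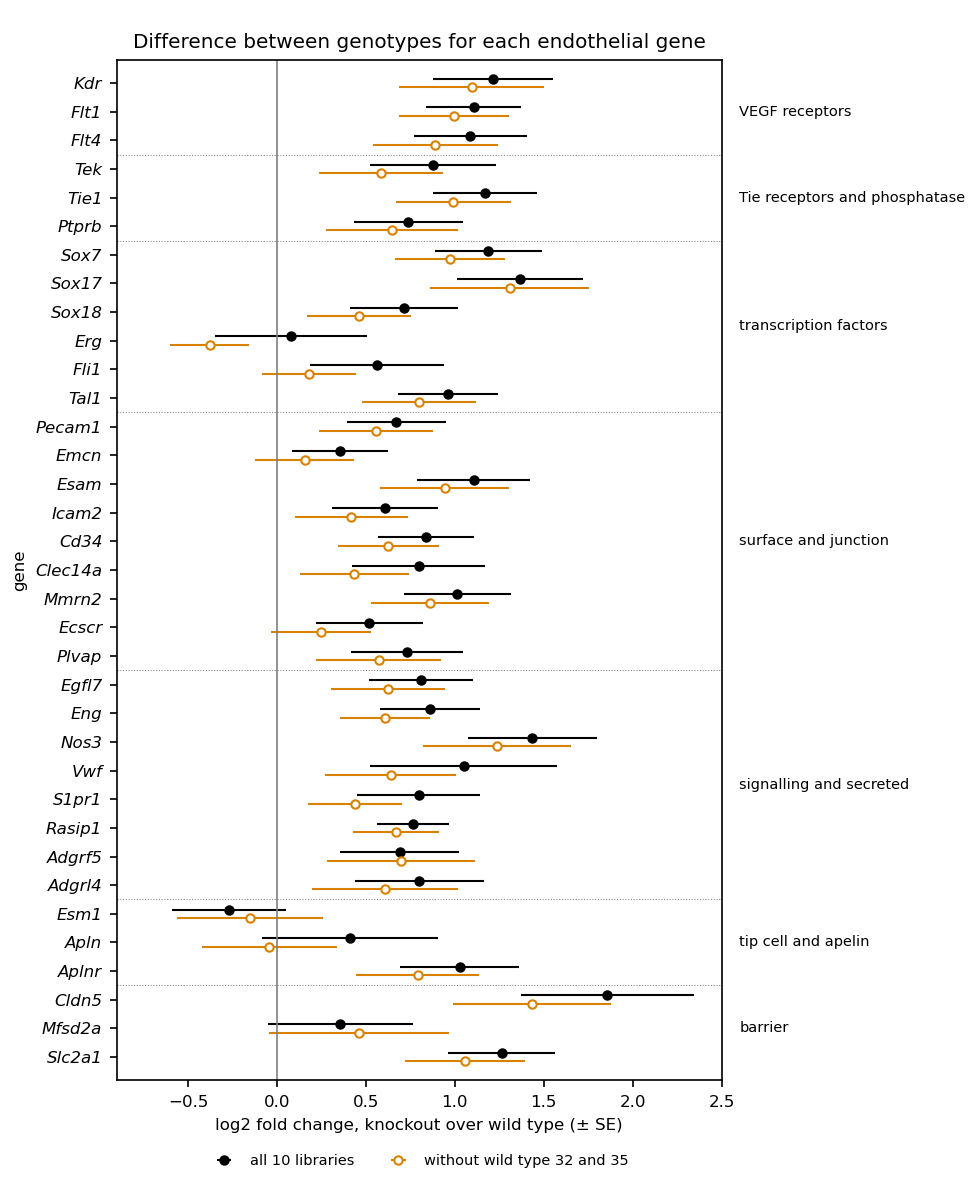
Log2 fold change, knockout over wild type, with its SE (horizontal axis) for each of the 35 genes (vertical axis, by role), from edgeR with all 10 libraries (black) and without wild-type 32 and 35 (orange, open). With all libraries 34 of 35 points lie right of 0, and without the 2 libraries 32 do, with Erg and Apln moving to the left of it.

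To compare levels between genes, CPM was divided by the summed exon length of each gene in GENCODE M21, which may differ from the annotation the authors counted on. On this scale, in CPM per kilobase, Slc2a1 was the most abundant of the 35 in the wild type at 17.8 ± 4.99, followed by Aplnr at 15.3 ± 6.22, Egfl7 at 13.6 ± 4.87, Plvap at 12.4 ± 4.25 and Cldn5 at 11.1 ± 6.39, and these neighbours did not differ beyond their spread. In the knockout, Slc2a1 and Cldn5 stood highest at 42.8 ± 18.6 and 40.1 ± 26.3, ahead of Aplnr at 31.2 ± 13.3. Esm1 was the least abundant in the wild type at 1.02 ± 0.153, with Sox17, Flt4 and Tal1 next above it at 1.23 ± 0.512, 1.26 ± 0.545 and 1.44 ± 0.354.

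Dividing each gene by Pecam1 in the same library sets it against a general vessel gene and does not depend on how libraries are scaled. Of the other 34 genes, 26 still had a higher mean log2 ratio in the knockout and 8 a lower one, with a median difference of 0.17, and for 26 the difference was at most 0.5 in either direction. Only for Kdr did every knockout library exceed every wild-type library, or 2.94% of the 34, against 0.0222% of all tested genes, and for 0 was every knockout library lower, against 2.04%. Pecam1 itself had a higher mean in the knockout, so dividing by it lowers the knockout ratio of genes that do not share that rise. The shares over all genes are therefore not a like background for the list. The Kdr to Pecam1 ratio was 1.42, 2.1, 1.34, 1.42 and 2.31 in knockout 16, 29, 42, 49 and 50 and 1.24, 1.1, 1.26, 1.1 and 1.2 in wild-type 22, 24, 32, 35 and 45. The wild-type values were tightly grouped, and knockout 29 and 50 stood well above them.

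For Cldn5 the ratio to Pecam1 was 0.586, 0.522, 0.414, 0.413 and 1.1 in the knockout and 0.234, 0.804, 0.133, 0.148 and 0.241 in the wild type, in the same order of libraries. The mean log2 difference was 1.20, the largest of the 34, but wild-type 24 was as high as the knockout libraries and exceeded all but knockout 50. Slc2a1 had ratios of 1.45, 2.71, 0.843, 1.49 and 1.95 and 1.02, 2.17, 1.09, 0.834 and 0.856, again with wild-type 24 among the highest, and Mfsd2a of 0.248, 0.0735, 0.0298, 0.0559 and 0.161 and 0.0702, 0.248, 0.227, 0.121 and 0.0876, with the wild-type values inside the knockout range or level with its top. Wild-type 24 also had the lowest Pecam1 level of all 10 libraries. At the other end, Esm1 had the lowest mean difference, -1.10, with ratios of 0.0158, 0.0181, 0.0151, 0.0175 and 0.0272 and 0.0226, 0.0536, 0.0586, 0.0419 and 0.0309, and overlap through knockout 50 and wild-type 22. For Emcn the ratios were 0.571, 0.455, 0.644, 0.552 and 0.404 and 0.612, 1.09, 0.602, 0.562 and 0.601, a mean log2 difference of -0.37.

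**Figure D4:**
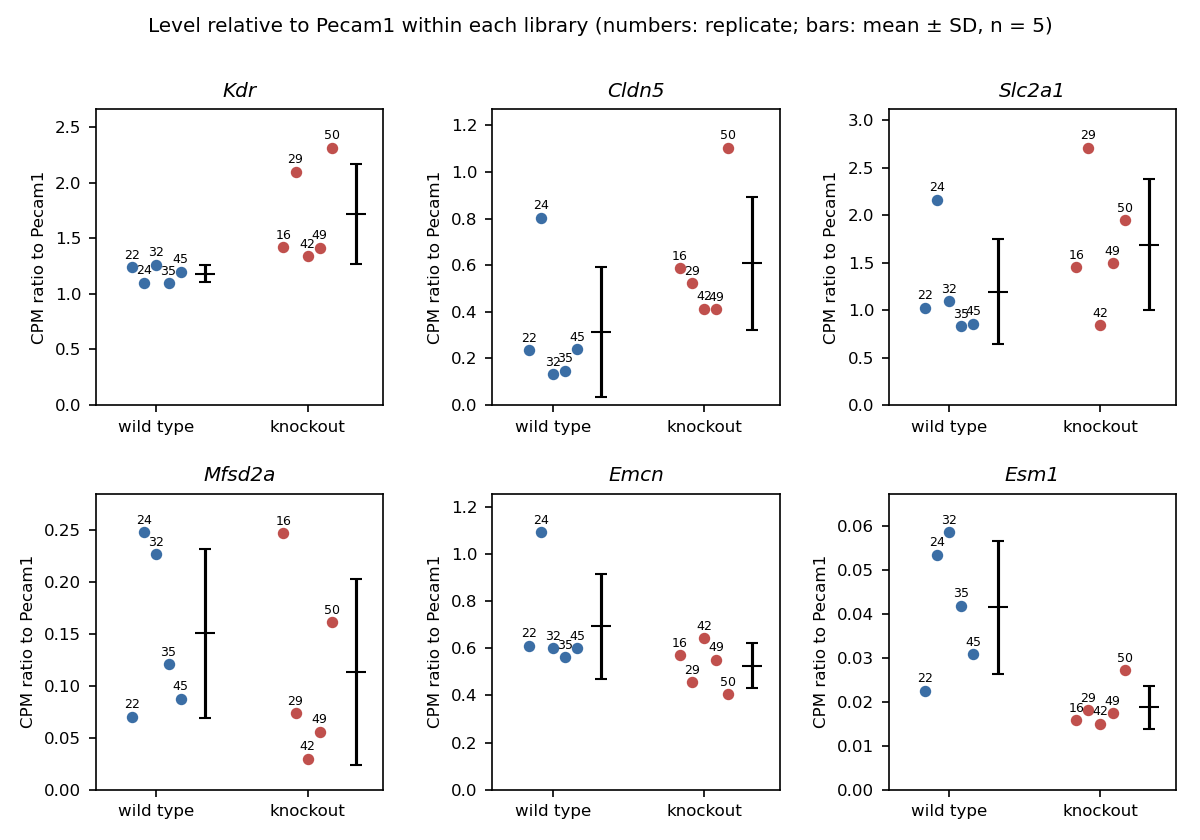
Ratio of the CPM of 6 genes to that of Pecam1 in the same library (vertical axes, linear, from 0), for wild-type (blue) and knockout (red) libraries, with replicate numbers and bars for the mean ± SD of 5 libraries. The groups are separate for Kdr, while wild-type 24 lies among the knockout values for Cldn5 and Slc2a1.

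Vessel genes outside the 35 also had higher means in the knockout for the most part. Of 13 further pan-endothelial genes, 0 passed the edgeR test in either direction. In all, 12 had an estimate above 0 and 8 an unadjusted p under 0.05 in the higher direction. Over all tested genes, 46.3% had a fold change above 0. An unadjusted edgeR p under 0.05 was found for 6.4% in the higher and 6.73% in the lower direction. These shares are the background for the lists below as well, and here too the counts only describe the lists. The median log2 fold change of the 13 genes was 0.76, and 0.67 without wild-type 32 and 35. The most abundant were Cdh5, with the values above, and Cd93, a receptor of endothelial and myeloid cells, at 58.5, 80.4, 140.2, 92.9 and 181 CPM in knockout libraries and 67.8, 30.9, 34.2, 42.6 and 73.6 CPM in wild-type libraries. Of 13 further tip cell and sprouting genes, 0 passed, and 10 had an estimate above 0 and 3 below it (median 0.89, and 0.60 without wild-type 32 and 35). An unadjusted p under 0.05 was found for 7 in the higher and 1 in the lower direction. The most abundant, Col4a1 and Col4a2, encode the basement membrane collagen that many cell types make, and stood at 1017 ± 386 against 494 ± 58 CPM and 658 ± 232 against 307 ± 53.8 CPM.

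Of 19 further barrier genes, 0 passed the edgeR test, 17 had an estimate above 0 and 10 an unadjusted p under 0.05 in the higher direction. The median was 0.97, with a range from -0.42 to 2.90, and was 0.79 without wild-type 32 and 35. The 2 most abundant were Spock2, a matrix proteoglycan, at 392 ± 121 against 525 ± 186 CPM, and Tjp1, the tight junction scaffold ZO-1. Tjp1 was at 144, 159.8, 228, 202 and 253 CPM in knockout libraries and 135, 125, 89.5, 90.6 and 139 CPM in wild-type libraries, with no overlap. Spock2 and Tjp1 are made by many cell types. The largest estimate of this list belonged to Slc38a5, an amino acid transporter of brain endothelium, chosen for mention after its values were seen. It was at 8.45, 3.7, 7.01, 7.24 and 43.7 CPM in knockout 16, 29, 42, 49 and 50 and 1.43, 3.45, 0.693, 0.614 and 3.27 CPM in wild-type 22, 24, 32, 35 and 45. Knockout 50 stood far above every other library. The efflux pump Abcb1a, named in the same way, was at 3.88, 7.55, 8.61, 5.5 and 17.1 and 2.37, 1.37, 2.32, 2.25 and 3.77 CPM (edgeR adjusted p = 0.0827). It too was highest in knockout 50, with no overlap.

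Angiogenic ligands, not all of which act on the receptors above, did not pass the test, and 11 of 13 were abundant enough to be tested. All 11 had estimates above 0 (median 0.36), and 1, Wnt7a, had an unadjusted p under 0.05. The most abundant were Cxcl12, a chemokine of perivascular cells, at 397 ± 163 against 212 ± 124 CPM, and Vegfa, the main ligand of Kdr, at 111, 166, 159, 172 and 132 CPM in knockout libraries and 148, 69.8, 111, 107 and 139 CPM in wild-type libraries, with overlap. Cxcl12 was lowest in wild-type 32 and 35, at 66.7 and 105 CPM.

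Markers of other cell types that come with vessels varied alongside the endothelial genes, and their part in the differences above was not tested. The summed level of 13 pericyte genes ran from 476 to 1001 CPM in knockout libraries and from 189.7 to 481 CPM in wild-type libraries, with 12 of 12 tested estimates above 0, 6 of them at an unadjusted p under 0.05, and none called. The most abundant were Notch3, at 138 ± 29.9 against 92.6 ± 19.2 CPM, and the receptor Pdgfrb, at 103 ± 25.4 against 63.1 ± 37.7 CPM, while Higd1b was at 0 in knockout 29 and 49 and wild-type 32. Vtn, named after its values were seen, was at 57.2, 68.3, 108, 71.5 and 371 CPM in knockout libraries and 24.3, 62.1, 12.2, 10.6 and 34.9 CPM in wild-type libraries, with knockout 50 far above the rest. Macrophage genes summed to 224 to 419 CPM in knockout libraries and 61.6 to 345 CPM in wild-type libraries, with 13 of 13 estimates above 0, led by Mrc1 (65.5 ± 39.4 against 33.9 ± 22.4 CPM) and Csf1r (64.6 ± 18.5 against 34.7 ± 20.3 CPM). Red cell genes summed to 1065 to 3571 CPM and 593 to 2122 CPM, and megakaryocyte and platelet genes to 16.2 to 67.4 CPM and 11.2 to 34.7 CPM. The most abundant were the embryonic globins Hbb-y (1058 ± 421 against 809 ± 409.6 CPM) and Hba-x (309 ± 377 against 109 ± 50.2 CPM), and Pf4 (14.7 ± 8.68 against 9.63 ± 8.43 CPM) and Itga2b (14.5 ± 10.4 against 6.19 ± 1.55 CPM). Treml1 and Gp1bb were at 0 in knockout 49, the shallowest library. None of these genes was called by edgeR, and the lowest sum of each of these 4 lists came from wild-type 32 or 35.

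Mesenchyme markers summed to 3109 to 11487 CPM in knockout libraries and 999.8 to 6665 CPM in wild-type libraries, with 7 of 11 tested estimates above 0 and a median of 0.40, which was -0.11 without wild-type 32 and 35. In that smaller set edgeR called 19 of 18673 genes lower. Among them was 1 gene of the list, the mesenchyme transcription factor Prrx1 (log2 fold change -2.14, SE 0.31, adjusted p = 0.0421). Prrx1 was lowest in the 2 libraries left out, so leaving them out favoured this call. It was at 75, 36.2, 73.4, 48.9 and 62.2 CPM in knockout 16, 29, 42, 49 and 50 and 359.6, 311, 10.3, 14.3 and 142 CPM in wild-type 22, 24, 32, 35 and 45 (with all libraries, log2 fold change -1.50, edgeR adjusted p = 0.445). Col3a1 and Col1a1 led this list, at 2096 ± 1109 against 1031 ± 607 CPM and 1644 ± 984 against 1003 ± 795 CPM, and Dpt was at 0 in wild-type 32 and 45. The corresponding median of the pericyte list was 0.67 and 0.50, that of the macrophage list 0.68 and 0.31, and that of the red cell list 0.74 and 0.45. Neuron markers went the other way, with 11 of 12 estimates below 0 (median -0.21) and 5 at an unadjusted p under 0.05, but their median was 0.13 without wild-type 32 and 35. Their sums ran from 6080 to 15077 CPM in knockout libraries and from 8097 to 15109 CPM in wild-type libraries, and knockout 29, with a high endothelial sum, also had a neuron sum of 15077 CPM, close to that of wild-type 35. Glia markers gave sums of 1787 to 6146 CPM and 1732 to 3241 CPM, with the highest in knockout 29, where Sox10 was at 3764 CPM, against 390.1 to 1375 CPM in the other libraries. The most abundant neuron genes were Nefm (2594 ± 1334 against 2824 ± 864 CPM) and Tubb3 (1821 ± 984 against 1987 ± 468 CPM), and after Sox10 the most abundant glia gene was Fabp7 (441 ± 146 against 644 ± 156 CPM).

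**Figure D5:**
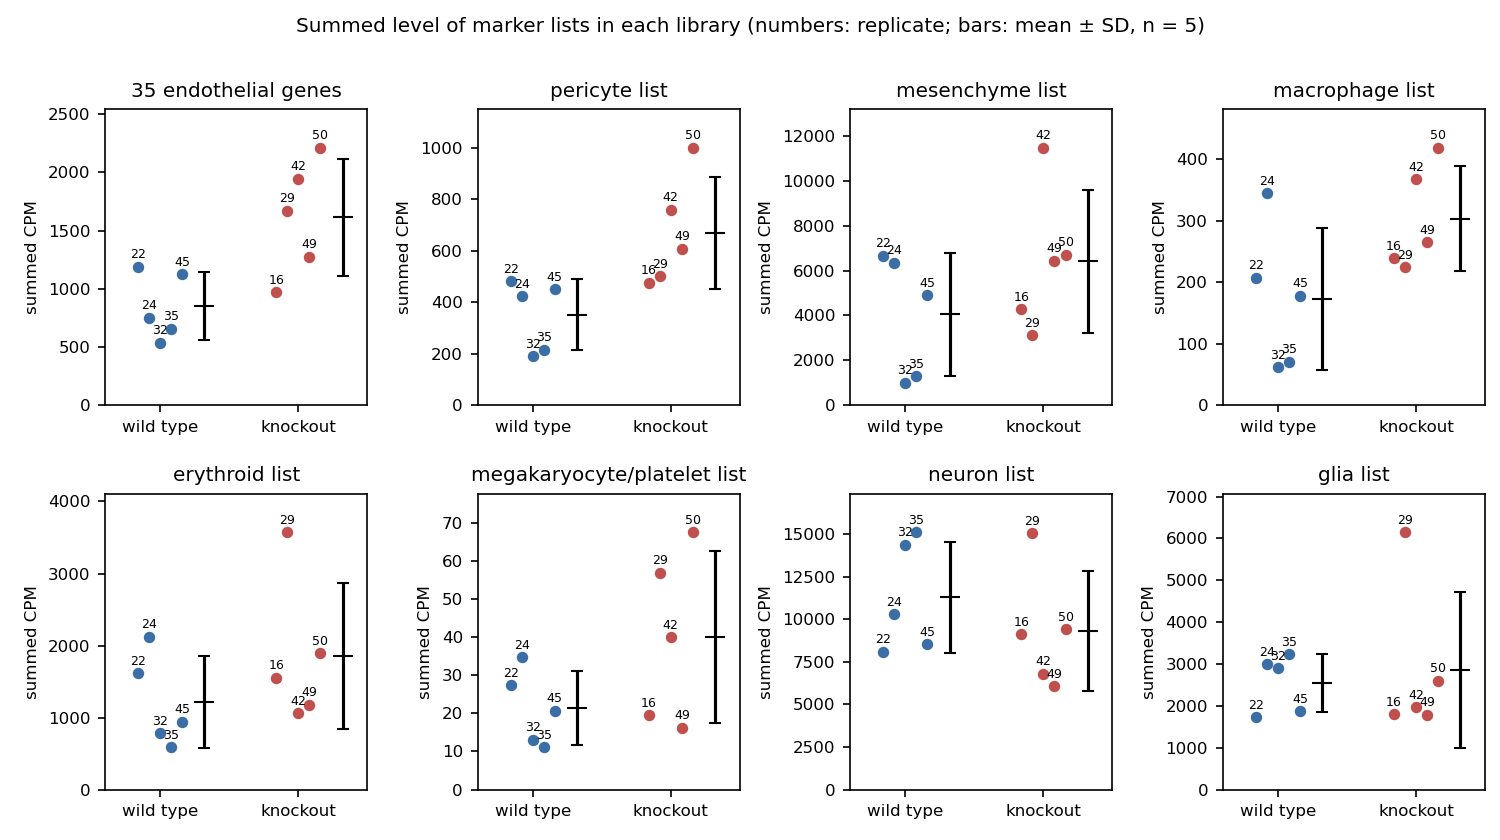
Summed CPM (vertical axes, linear, from 0) of the 35 endothelial genes and of 7 marker lists in each wild-type (blue) and knockout (red) library, with replicate numbers and bars for the mean ± SD of 5 libraries. Wild-type 32 and 35 are low in the endothelial, pericyte, mesenchyme, macrophage, erythroid and megakaryocyte sums and high in the neuron sum, and knockout 29 has the highest erythroid and glia sums.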

How the data were processed

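RNA was sequenced from trigeminal ganglia of 5 knockout and 5 wild-type libraries, and the deposited values are raw counts per gene, 1 file per library. The submitters' processing notes name featureCounts 1.5.0-p1, STAR 2.7.10a, bcl2fastq 2.20.0.422 and the builds GRCm39 and mm10. Settings for multi-mapped reads, strand and annotation release were not given in the sources used here. Symbols were matched for 52081 of 55414 Ensembl IDs. Genes were kept with filterByExpr (minimum count 10), scaled with TMM factors and tested over all 10 libraries with edgeR 4.0.16 (quasi-likelihood test, R 4.3.3) and Benjamini-Hochberg adjustment at 0.05, after the same steps had been tested on simulated data. CPM here are TMM-scaled and were computed from the deposited counts. No pair of libraries of the same genotype agreed within sampling noise (lowest chi-square per gene 9.88). That lowest value was for wild-type 32 and 35, the most alike pair. The other wild-type pairs ran from 27.9 to 247.4 and the knockout pairs from 17.3 to 156.5.

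The members and all lists were chosen with earlier results of these data known, so no test of a list was made. Values in every library are given for members chosen by role, for the largest and smallest fold change in each role and for any called gene. From each other list the 2 genes with the highest mean CPM are given, by library or as mean ± SD; other genes of those lists were named after their values were seen. Alternatives were DESeq2-type size factors, total counts alone, DESeq2 1.42.0, limma 3.58.1 voom with quality weights, no low-count filter, a minimum count of 50, each library left out in turn, and wild-type 32 and 35 or knockout 29 and 49 left out together. Counts of genes without overlap were also made with the scaling of all 10 libraries kept, an alternative chosen after seeing the data. Exon lengths and overlaps come from GENCODE M21 (GRCm38) and promoters from RefSeq (GRCm38.p6).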

Additional observations from a re-analysis of the deposited data

Results flagged for a closer look

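In 70 groups of 5 libraries (35 genes in each genotype), 3 held a library far from the other 4 by Dixon's test at the 95% level, where chance alone gives about 1 in 20. Emcn was at 80.7 CPM in knockout 42, against 45.7 CPM in the next highest knockout library. Vwf was at 107 CPM in knockout 42, against 54.0 CPM in the next. Cldn5 was at 122 CPM in knockout 50, against 51.8 CPM in the next.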

How the results depend on the processing

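The median log2 fold change of the 35 genes stayed above 0 under all 18 alternatives, from 0.63 without wild-type 32 and 35 to 1.18 with limma voom, and ran from 0.71 to 0.98 with 1 library left out. Of 630 single estimates, 6 changed sign, in 3 genes: Erg (-0.38 without wild-type 32 and 35, -0.12 and -0.10 without either, -0.060 without knockout 42, and up to 0.37 with 1 library left out), Apln (-0.043 without wild-type 32 and 35) and Mfsd2a (-0.025 without knockout 50 to 0.56 without knockout 42). Over all 18 alternatives, their highest estimates were 0.89 for Erg, 0.97 for Apln and 0.69 for Mfsd2a. Genes of the list called higher went from 0 to 14 with DESeq2, 24 with limma voom and 1 with no low-count filter, and were 0 with each library left out. Members without overlap went from 2 to 6 with RLE size factors, 6 with DESeq2, 5 with no filter, 5 with a minimum count of 50, 6 without wild-type 32 and 35, and 2 to 13 with 1 library left out, with the scaling either recomputed or kept. Over all genes, calls in the higher direction went from 17 to 399 with DESeq2, 1264 with limma voom, 55 with no filter, 0 without wild-type 32 and 35, 6 without knockout 29 and 49, and 2 to 35 with 1 library left out, and calls in the lower direction from 67 to 238, 1080, 102 and 19 under the first 4 of these and 27 to 88 with 1 library left out. The cause was not tested. No paired analysis was possible because no replicate number occurs in both groups. Depth limits Esm1 most, with 5 counts in knockout 49.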

Other observations

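Vessel subtype genes outside the 35 gave these values, with 0 called by edgeR in any list. Of 8 arterial genes, 7 had an estimate above 0 (median log2 fold change 0.57, also 0.57 without wild-type 32 and 35) and 4 an unadjusted p under 0.05. The most abundant were Efnb2, a ligand that marks arteries, at 187 ± 14.5 CPM in knockout libraries and 127 ± 9.54 CPM in wild-type libraries, and the Notch ligand Jag1, at 97.2 ± 16.3 and 64.6 ± 3.76 CPM. For both, every knockout library exceeded every wild-type library, as for 1.29% of all tested genes (edgeR adjusted p = 0.0517 for Efnb2 and 0.0845 for Jag1). In wild-type 32 and 35, Efnb2 was at 120 and 130 CPM, against 121 to 143 CPM in the other wild-type libraries. Jag1 was at 61.2 and 60.7 CPM there, against 64.4 to 68.6 CPM. Neither gene thus showed the marked drop that most of the 35 genes had in these libraries. Of 4 venous genes, 3 had an estimate above 0 (median 0.61), led by Nrp2, a receptor that neurons also express, at 416 ± 115 and 196 ± 78 CPM, and by the venous factor Nr2f2, at 249 ± 47.1 and 157 ± 12.9 CPM. Nr2f2 too was only slightly lower in wild-type 32 and 35, at 144 and 150 CPM, against 153 to 177 CPM in the other wild-type libraries. Its level in every knockout library exceeded that in every wild-type library (edgeR adjusted p = 0.0726). Of 5 lymphatic genes, 3 were above and 2 below 0, with a median of 0.62 that was 0.11 without wild-type 32 and 35, and with an unadjusted p under 0.05 for 1 in each direction. The lower one was Prox1, the defining factor of lymphatic endothelium, which neural cells also express, named after its values were seen. It was at 13.54, 7.71, 5.87, 8.69 and 7.79 CPM in knockout 16, 29, 42, 49 and 50 and 20.1, 15.1, 26.9, 23.9 and 16.4 CPM in wild-type 22, 24, 32, 35 and 45, with every knockout library below every wild-type library (log2 fold change -1.23, SE 0.25, edgeR adjusted p = 0.0603). The higher one was Reln (log2 fold change 1.21, edgeR adjusted p = 0.298). Their most abundant genes were Pdpn, at 26.4 ± 6.5 and 30.6 ± 11 CPM, and Lyve1, which macrophages also express, at 20 ± 9.27 and 13.1 ± 10.5 CPM. The 12 genes of the response to low oxygen were split into 6 above and 6 below 0 (median -0.07), with Ldha at 231 ± 54.1 and 257 ± 58.7 CPM and Hif1a at 146 ± 42.8 and 173 ± 1.25 CPM. An unadjusted p under 0.05 was found for 1 in the higher and 2 in the lower direction. Every knockout library exceeded every wild-type library for Epas1 (log2 fold change 1.16, edgeR adjusted p = 0.0841). The reverse held for Pgk1 (log2 fold change -0.45, edgeR adjusted p = 0.331).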
